A study of Saccharomyces cerevisiae EC1118 with 12 samples.

Results

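Peroxidase genes were followed in the wine yeast Saccharomyces cerevisiae EC1118 across 4 oxygen supplies. The set held 8 genes: the peroxiredoxins TSA1, TSA2, AHP1, DOT5 and PRX1, and the glutathione peroxidases GPX1, GPX2 and HYR1. They were picked by platform gene symbol, with the brightest probe set of a gene where it had several, and made up 8 of 5449 genes measured. TSA2 was chosen by its measured values, being much lower at 20% oxygen than in anaerobic cultures in these same data, so its levels are given as a description with no test. The other 7 were taken as its family and not for their response, though earlier results of these data were known.

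All cultures were nitrogen-limited chemostats of one strain on a synthetic must modified to limit nitrogen, kept at pH 3.5 and diluted at 0.1 volumes each hour, and sampled at steady state. The groups were fully anaerobic cultures and cultures sparged with 1%, 5% or 20% oxygen, with 3 Affymetrix arrays each. Nothing in the labels ties each array to its own chemostat run, and p-values therefore reflect the spread between these arrays alone, which may be technical. Dissolved oxygen is labelled 1.2, 2.7 and 5 micromolar in the sample titles, read with the series design, and 0.8, 4 and 11 micromolar in the condition text, and groups are therefore called by their gas.

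Peroxiredoxins and glutathione peroxidases reduce hydrogen peroxide and organic hydroperoxides through a reactive cysteine. In yeast the peroxiredoxins are mostly recharged by thioredoxin and thioredoxin reductase, with NADPH as the source of electrons. The yeast glutathione peroxidases are of the phospholipid hydroperoxide type. Tsa1 is the abundant cytosolic peroxiredoxin and also acts as a chaperone, Tsa2 is its close cytosolic paralog and is usually the scarcer of the pair, and Hyr1 (also called Gpx3) senses peroxide and passes the signal to the transcription factor Yap1.

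Values are log2 levels made with RMA, and a difference of 1 is a 2-fold change. Levels of different probe sets are not comparable amounts of RNA, so differences are taken within a gene. A summed level over several genes is carried by its brightest probe sets. The genes usually taken as marks of anaerobic growth had their highest means in the anaerobic group. At 20% oxygen 6 of 6 fell, where 7.91% of all genes were called. At 5% oxygen 5 of 6 were called lower and at 1% oxygen 1 of 6, beside 16.3% and 16.4% of all genes. Their summed level was 14.22 to 14.63 in anaerobic arrays, 13.14 to 13.96 at 1%, 12.17 to 12.93 at 5% and 10.48 to 11.36 at 20% oxygen. Of 4 aerobic counterparts, PET9 and COX5A rose at 20% oxygen, and HYP2 and CYC1 were not called. Within its group, anaerobic array 1 was lowest for each anaerobic mark and highest for each aerobic counterpart. CYC1 read 8.88 there, beside 6.29 and 5.38 in the other anaerobic arrays. Of 4 haploid mating markers, MF(ALPHA)1 and STE2 rose at 20% oxygen, and MFA1 and STE3 were not called there. At 5% oxygen 3 of the 4 were called higher, STE3 among them, and at 1% oxygen STE2 alone. All 4 had mean levels among the lowest 25% of genes. The summed level of the 4 haploid markers was 5.78 to 6.33, 6.47 to 7.01, 7.20 to 7.50 and 7.77 to 8.75 in anaerobic, 1%, 5% and 20% oxygen arrays. Their part in the peroxidase results was not tested. Arrays correlated with the mean of the others of their group at 0.94 to 0.992, and 1% oxygen array 3 was the lowest. Anaerobic array 1 was not set apart by this measure (0.977). The value was 0.97 for 1% oxygen array 2, and 0.973 and 0.972 for 20% oxygen arrays 1 and 3. Anaerobic array 1 held the highest level of 7 of the 8 peroxidase genes within its group, and 1% oxygen array 3 that of 6 of 8. Other groups had such arrays too: 5% oxygen array 1 was highest for 6 of 8 and 20% oxygen array 2 for 5 of 8. Anaerobic array 2 was lowest for 6 of 8.

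TSA2 (YDR453C) was lower at each successive oxygen supply. Its level was 8.68, 7.59 and 8.26 in the anaerobic arrays, 6.16, 5.69 and 7.22 at 1% oxygen, 5.13, 4.60 and 5.41 at 5%, and 3.57, 4.20 and 4.02 at 20%. No array of one group reached into the range of the next, in any of the 3 steps. The group means were 8.18 ± 0.55, 6.36 ± 0.78, 5.05 ± 0.41 and 3.93 ± 0.33 (SD, n = 3 each).

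Against the anaerobic group the TSA2 difference was -1.82 ± 0.39 at 1% oxygen (standard error of the fit, as for all differences here), -3.13 ± 0.39 at 5% and -4.25 ± 0.39 at 20% oxygen. As ratios of the RMA values these are 3.53-fold, 8.76-fold and 19.0-fold lower levels. Whether TSA2 was above background at 5% and 20% oxygen was not tested, so the ratios at these supplies describe the processed values. Between neighbouring oxygenated groups the difference was -1.31 ± 0.39 for 5% against 1% oxygen and -1.12 ± 0.39 for 20% against 5%. Ranked from the most negative difference among 5449 genes, TSA2 was number 70 at 1%, 16 at 5% and 11 at 20% oxygen. At 5% and 20% oxygen all its arrays lay under 5.84, the level that marks the lowest 25% of genes, where RMA compresses differences. In RNA from whole cultures, fewer cells with the transcript and less of it per cell cannot be told apart. Without 1% oxygen array 3 the TSA2 difference at 1% was -2.25, and without anaerobic array 1 it was -1.57. Over all alternatives it ran from -2.25 to -1.49, so the share of the change that falls in the first step depends on single arrays.

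**Figure D1:**
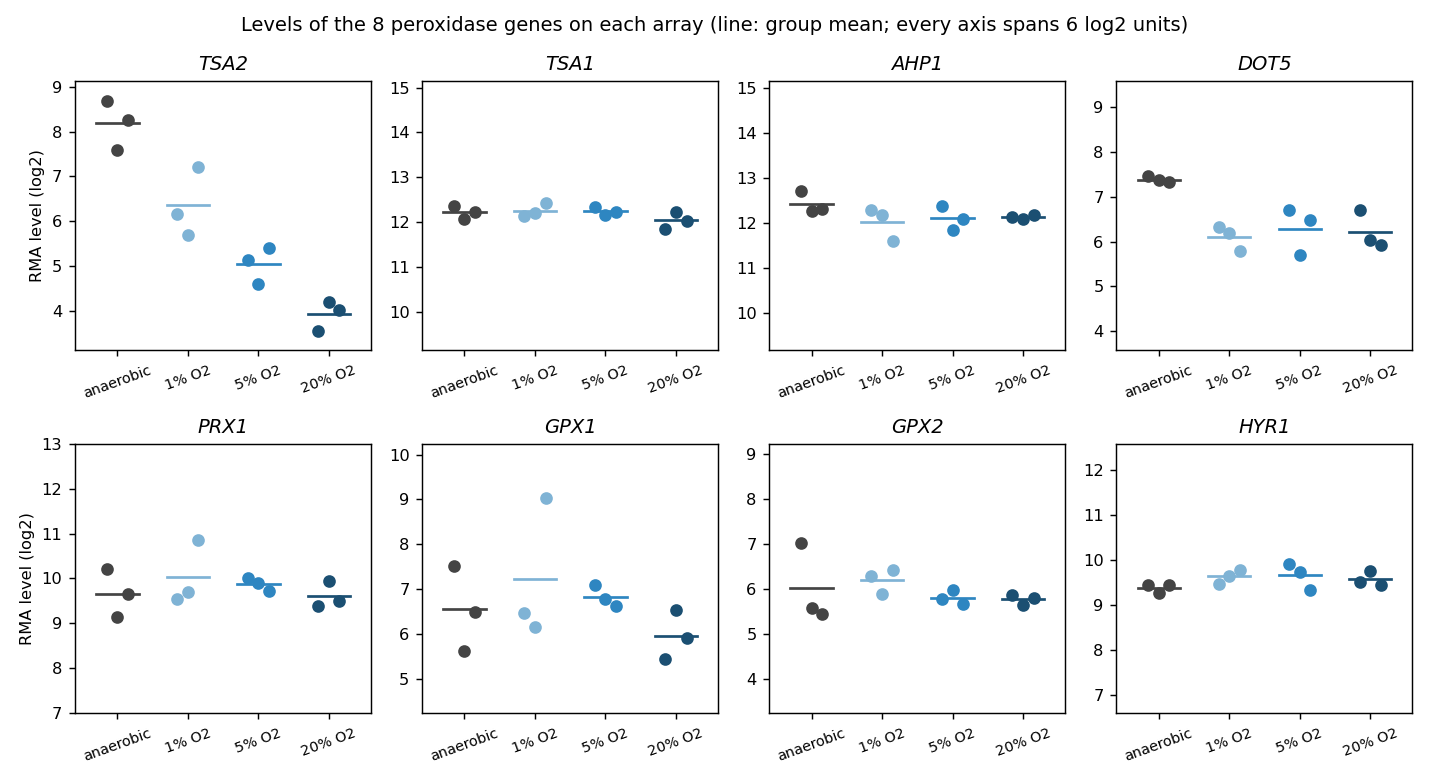
RMA level (log2, vertical axis) of the 8 peroxidase genes on each of the 12 arrays, by group (horizontal axis). Points are arrays, lines are group means, and every vertical axis spans the same number of log2 units. TSA2 steps downward, with means of 8.18, 6.36, 5.05 and 3.93 from the left, DOT5 is lower in all 3 oxygenated groups, and GPX1 has one high array (9.03) at 1% oxygen.

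TSA1 (YML028W), the paralog of TSA2, did not pass the test in any comparison. It read 12.36, 12.07 and 12.22 in the anaerobic arrays, 12.15, 12.21 and 12.43 at 1% oxygen, 12.35, 12.17 and 12.23 at 5%, and 11.86, 12.23 and 12.03 at 20%. All 12 values lay between 11.86 and 12.43 and the 4 groups overlapped. The difference from the anaerobic group was 0.047 ± 0.17 at 1% oxygen, 0.032 ± 0.17 at 5% and -0.18 ± 0.17 at 20%, with adjusted p = 0.873, 0.921 and 0.594 in the limma fit over all genes. The 95% interval at 20% oxygen ran from -0.56 to 0.20, so a change of TSA1 the size of that of TSA2 lies far outside it. The TSA1 probe set is bright, and high levels on arrays can be compressed too.

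The change of TSA2 less that of TSA1 was -1.87 at 1% oxygen, -3.16 at 5% and -4.07 at 20%. Over the arrays, each taken from the gene's own anaerobic mean, this quantity was 0.35, -0.44 and 0.081 in the anaerobic arrays, -1.95, -2.48 and -1.17 at 1% oxygen, -3.17, -3.53 and -2.79 at 5%, and -4.26, -3.99 and -3.96 at 20%. All 9 oxygenated arrays were below the anaerobic ones. No test is given, since TSA2 was picked for its change. TSA1 and TSA2 are alike in sequence, and whether their probes cross-hybridise was not tested.

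**Figure D2:**
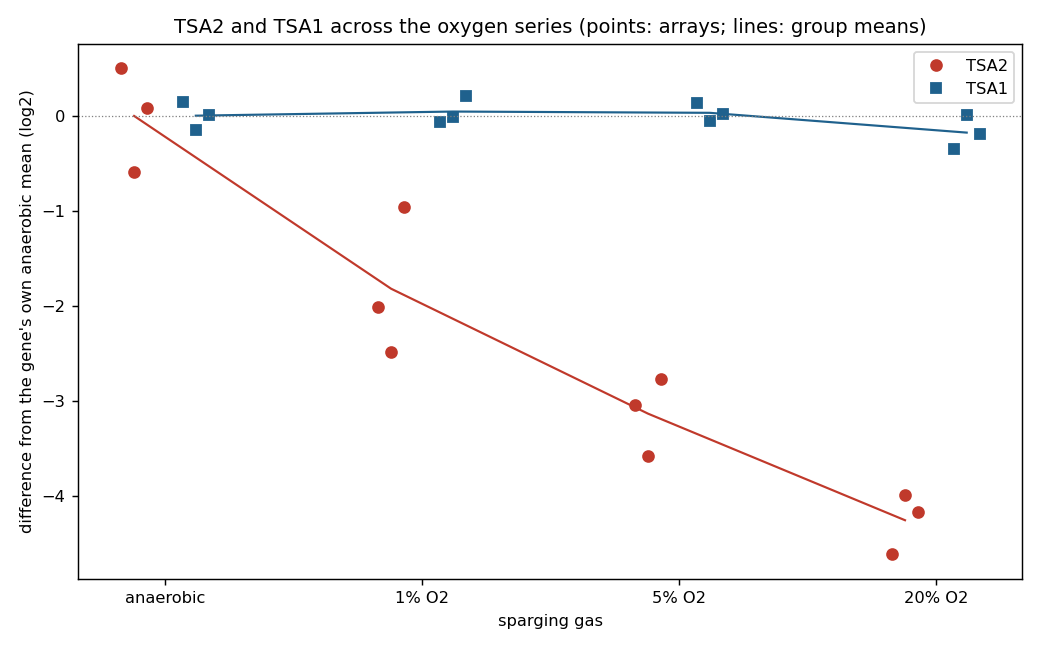
Difference of TSA2 (circles) and TSA1 (squares) from their own anaerobic means (log2, vertical axis) by sparging gas (horizontal axis), with 3 arrays a group as points and group means joined by lines. TSA2 moves away from 0 at each step, to -4.25 at 20% oxygen, while TSA1 stays between -0.35 and 0.21 on all arrays.

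Of the 7 family members other than TSA2, DOT5 was the only one called at an adjusted p under 0.05, and it was called in each comparison with the anaerobic group. That is 1 of 7 members at 1% oxygen, where 16.4% of all genes were called, 1 of 7 at 5% oxygen against 16.3% of all genes, and 1 of 7 at 20% oxygen against 7.91% of all genes. A share of 1 in 7 is no result about the family beside these backgrounds. The backgrounds rest on single arrays too: without anaerobic array 2 the genes called were 36 in place of 895 at 1%, 400 in place of 889 at 5% and 153 in place of 431 at 20%. The median difference of the 7 was 0.18, 0.032 and -0.24 in the same order, beside 0.00094, 0.069 and 0.047 over all genes. The 3 comparisons share the anaerobic arrays.

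DOT5 (YIL010W) encodes a nuclear thiol peroxidase, first named as a disruptor of telomeric silencing. It read 7.45, 7.37 and 7.33 in the anaerobic arrays, 6.32, 6.19 and 5.78 at 1% oxygen, 6.70, 5.70 and 6.47 at 5%, and 6.70, 6.04 and 5.93 at 20%. Every oxygenated array was below every anaerobic array, and the 3 oxygenated groups overlapped each other. Genes that were not called, such as CAD1 and HAP1, were separated from the anaerobic group in the same way. The share of all genes separated between 2 groups was not counted, here or for the genes below.

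DOT5 fell by 1.28 ± 0.28 at 1% oxygen (adjusted p = 0.0179, limma). It fell by 1.09 ± 0.28 at 5% (adjusted p = 0.0218) and fell by 1.16 ± 0.28 at 20% (adjusted p = 0.0281). On the linear scale DOT5 was 2.43-fold, 2.13-fold and 2.23-fold lower. Between oxygenated groups its difference was 0.19 ± 0.28 for 5% against 1% (95% interval -0.42 to 0.81, adjusted p = 0.935) and -0.067 ± 0.28 for 20% against 5% (-0.68 to 0.55, adjusted p = 0.999). The DOT5 levels thus stood apart only from the anaerobic group, whereas those of TSA2 also stood apart between the oxygenated groups.

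The DOT5 difference lay between -1.40 and -0.80 over all alternatives, but its calls rested on single arrays. At 1% oxygen, dropping one anaerobic array left DOT5 uncalled for array 2 (0.0734) and array 3 (0.0541), as did dropping 1% oxygen array 3 (0.0502, all adjusted p). At 5% oxygen DOT5 lost its call when any one anaerobic array was dropped, or the second 5% oxygen array, with adjusted p of at most 0.0922. At 20% oxygen it did so when any one anaerobic array was dropped, or 20% oxygen array 2 or 3, with adjusted p of at most 0.108.

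AHP1 (YLR109W), a thioredoxin peroxidase with a preference for alkyl hydroperoxides, read 12.72, 12.26 and 12.32 in the anaerobic arrays, 12.28, 12.17 and 11.60 at 1% oxygen, 12.38, 11.85 and 12.09 at 5%, and 12.13, 12.09 and 12.17 at 20%. The 20% arrays were all below the anaerobic ones by a small margin, and the 1% and 5% arrays overlapped them. Its differences from the anaerobic group were -0.41 ± 0.23 at 1% oxygen, -0.32 ± 0.23 at 5% and -0.30 ± 0.23 at 20%, with adjusted p = 0.207, 0.347 and 0.46. Without anaerobic array 1 the AHP1 differences were -0.27, -0.18 and -0.16. Without 1% oxygen array 3 the difference at 1% was -0.20, and without both arrays it was -0.062. The highest AHP1 value was in anaerobic array 1 and the lowest in 1% oxygen array 3. The 95% interval for AHP1 at 20% oxygen was -0.79 to 0.19, which excludes a 2-fold change either way.

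PRX1 (YBL064C), the mitochondrial peroxiredoxin, was not called. It read 10.20, 9.14 and 9.66 in the anaerobic arrays, 9.55, 9.69 and 10.86 at 1% oxygen, 10.02, 9.89 and 9.71 at 5%, and 9.38, 9.95 and 9.50 at 20%. The groups overlapped, and the highest value was that of 1% oxygen array 3. The differences were 0.37 ± 0.35, 0.21 ± 0.35 and -0.052 ± 0.35 at 1%, 5% and 20% oxygen (adjusted p = 0.469, 0.72 and 0.948). Without anaerobic array 1 the PRX1 differences were 0.63, 0.48 and 0.21, and without 1% oxygen array 3 that at 1% was -0.046.

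**Figure D3:**
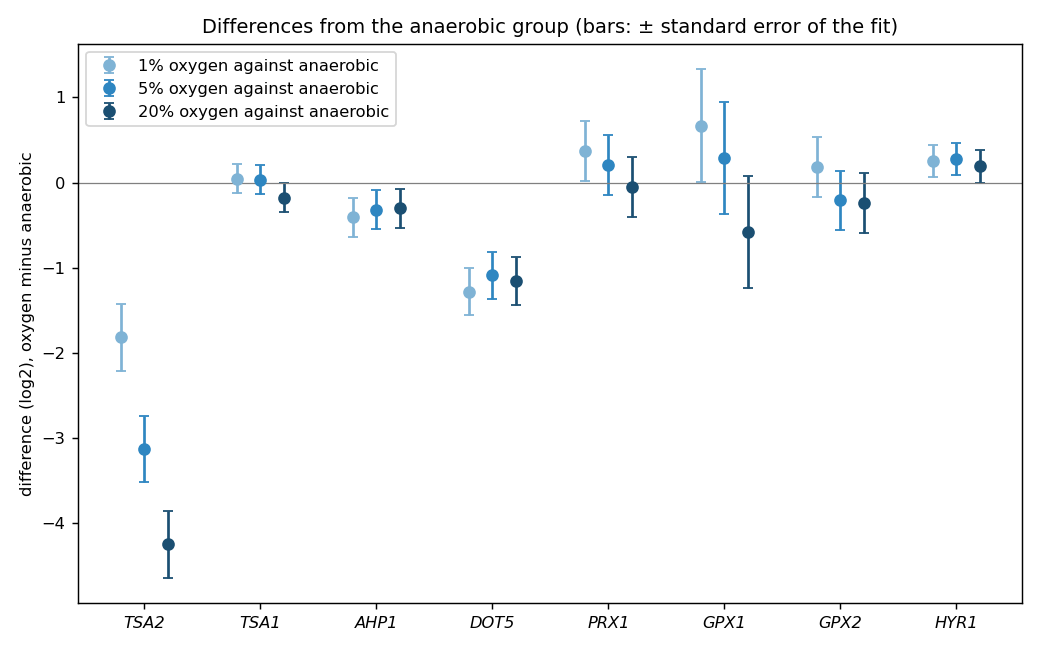
Difference of each peroxidase gene from the anaerobic group (log2, vertical axis) at 1%, 5% and 20% oxygen, with bars of 1 standard error of the limma fit. TSA2 shows a larger negative difference at each supply (-1.82, -3.13 and -4.25), DOT5 a similar one at all 3 (-1.28, -1.09 and -1.16), and the other 6 genes lie between -0.58 and 0.67.

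Among the glutathione peroxidases none was called. GPX1 (YKL026C) had the largest standard error of the 8 genes in the fit, 0.66, with SDs of 0.95, 1.58, 0.24 and 0.55 in anaerobic, 1%, 5% and 20% oxygen cultures. It read 7.52, 5.63 and 6.50 in the anaerobic arrays, 6.48, 6.15 and 9.03 at 1% oxygen, 7.10, 6.78 and 6.62 at 5%, and 5.45, 6.54 and 5.92 at 20%. The 20% arrays were all below the 5% arrays (-0.86 ± 0.66, adjusted p = 0.999), and each oxygenated group overlapped the anaerobic one.

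The differences of GPX1 were 0.67 ± 0.66 at 1%, 0.29 ± 0.66 at 5% and -0.58 ± 0.66 at 20% oxygen against anaerobic cultures (adjusted p = 0.484, 0.813 and 0.658). For 20% against 1% oxygen the difference was -1.25 ± 0.66 (adjusted p = 0.395), with a 95% interval of -2.68 to 0.18. Without 1% oxygen array 3 the GPX1 difference at 1% against anaerobic was -0.23, and without anaerobic array 1 the differences were 1.16, 0.77 and -0.09 at 1%, 5% and 20%.

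GPX2 (YBR244W) averaged 6.01 ± 0.89, 6.20 ± 0.28, 5.80 ± 0.16 and 5.77 ± 0.11 in anaerobic, 1%, 5% and 20% oxygen cultures (SD, n = 3 each). Anaerobic array 1 held its highest value, 7.03, beside 5.57 and 5.43 in the other anaerobic arrays. Without that array its differences were 0.70 at 1%, 0.30 at 5% and 0.27 at 20% oxygen, in place of 0.18, -0.21 and -0.24, and none was called either way (lowest adjusted p = 0.0722). The GPX2 means at 5% and 20% oxygen, and its anaerobic arrays 2 and 3, lay under 5.84. That level marks the lowest 25% of genes, where RMA compresses differences, so a change of GPX2 may be understated.

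HYR1 (YIR037W), the peroxide sensor, read 9.44, 9.27 and 9.45 in the anaerobic arrays, 9.48, 9.65 and 9.79 at 1% oxygen, 9.92, 9.75 and 9.33 at 5%, and 9.52, 9.77 and 9.45 at 20%. The 1% arrays lay just above the anaerobic ones and the other groups overlapped. HYR1 averaged 9.39 ± 0.10, 9.64 ± 0.15, 9.67 ± 0.30 and 9.58 ± 0.17 over the same groups. Its differences were 0.25 ± 0.19, 0.28 ± 0.19 and 0.19 ± 0.19 (adjusted p = 0.365, 0.348 and 0.611). The 3 intervals together span -0.23 to 0.70, so changes of 2-fold or more lie outside them.

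Between oxygenated groups none of the 7 members was called, in a background where limma called 0% of genes for 5% against 1% oxygen, 0% for 20% against 5%, and 0.367% for 20% against 1%. At an unadjusted p under 0.05 there were 265, 149 and 780 genes in these comparisons and 0 of the 7 members in each. Their lowest adjusted p was 0.891, 0.999 and 0.395 in the same order. TSA2 differed by -2.43 ± 0.39 between 20% and 1% oxygen, beside -0.22 ± 0.17 for TSA1 and 0.12 ± 0.28 for DOT5.

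Genes whose 4 groups were ordered downward at every step with no overlap between arrays made up 0.11% of all genes, or 6 of 5449, with TSA2 among them and none of the other 7 peroxidase genes. The others were ANB1, the hypoxic form of a translation factor, EUG1, a disulfide isomerase of the endoplasmic reticulum, HUG1, an inhibitor of ribonucleotide reductase, and the open reading frames YGL039W and YML083C. Their differences at 20% oxygen against anaerobic cultures were -2.14 for ANB1, -1.68 for EUG1, -5.33 for HUG1, -2.76 for YGL039W and -3.56 for YML083C. OPT2 and RKM5 were ordered upward in the same way.

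The genes with the profile most like that of TSA2, by Pearson's r of log2 levels over the 12 arrays among 3840 genes that were not dim, had a symbol beyond the systematic name and were not of the PAU family, were ADH7 (r = 0.932), HPF1 (0.927), FHN1 (0.913), ALE1 (0.912) and EUG1 (0.899). ADH7 encodes an alcohol dehydrogenase, HPF1 a mannoprotein, and ALE1 a lysophospholipid acyltransferase. Spearman's rho for these 5 was 0.881 to 0.965, and r was 0.854 to 0.926 without the 2 arrays farthest from the median of TSA2. The arrays fall into 4 groups, so these values mostly describe the group means: within groups r was 0.132, 0.349, -0.0682, 0.432 and -0.0874. Their differences at 1%, 5% and 20% oxygen were -2.18, -4.32 and -4.80 for ADH7, -3.42, -5.41 and -5.96 for HPF1, and -0.73, -1.09 and -1.68 for EUG1. Dim was judged by the mean over all 12 arrays (under 5.84). ADH7, with a mean of 5.91, passed only through its higher anaerobic and 1% oxygen levels. At 5% and 20% oxygen the group means of ADH7 and HPF1 lay under 5.84, so the list is a description only.

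Of the peroxidase genes DOT5 was nearest to TSA2 over the 12 arrays (r = 0.634, number 279 of 5448 genes), and TSA1 followed (r = 0.523, number 554). Within groups the order was another one. The deviations of TSA2 from its group means correlated with those of GPX1 at 0.889, of PRX1 at 0.827 and of TSA1 at 0.811, and with those of DOT5 at -0.141. In 1% oxygen array 3, TSA2 was 0.86, PRX1 0.83, GPX1 1.81 and TSA1 0.17 above the group mean. In anaerobic array 1 the same genes were 0.50, 0.53, 0.97 and 0.15 above it. Without both arrays the within-group correlations with TSA2 were 0.674 for GPX1, 0.443 for PRX1 and 0.654 for TSA1 over 10 arrays. CTT1, the cytosolic catalase, was also high in these arrays, with 9.84 in anaerobic array 1 beside 6.05 and 6.21, and 8.26 in 1% oxygen array 3 beside 5.92 and 5.30. The part of the arrays' common shift in these correlations was not tested.

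For TSA1 the nearest profiles were CPR1 (r = 0.894), a cyclophilin, HSP26 (0.887), a small heat shock protein, POR1 (0.885), the mitochondrial porin, SNO4 (0.878) and FMS1 (0.872), a polyamine oxidase. Among all genes GPX1 was number 8 (r = 0.865) and PRX1 number 16 (r = 0.826) in likeness to TSA1. Within groups these values were 0.847 and 0.878, and 0.874 and 0.876 without both arrays named above. TSA1, PRX1 and GPX1 thus varied together from array to array, with little difference between the group means of TSA1.

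**Figure D4:**
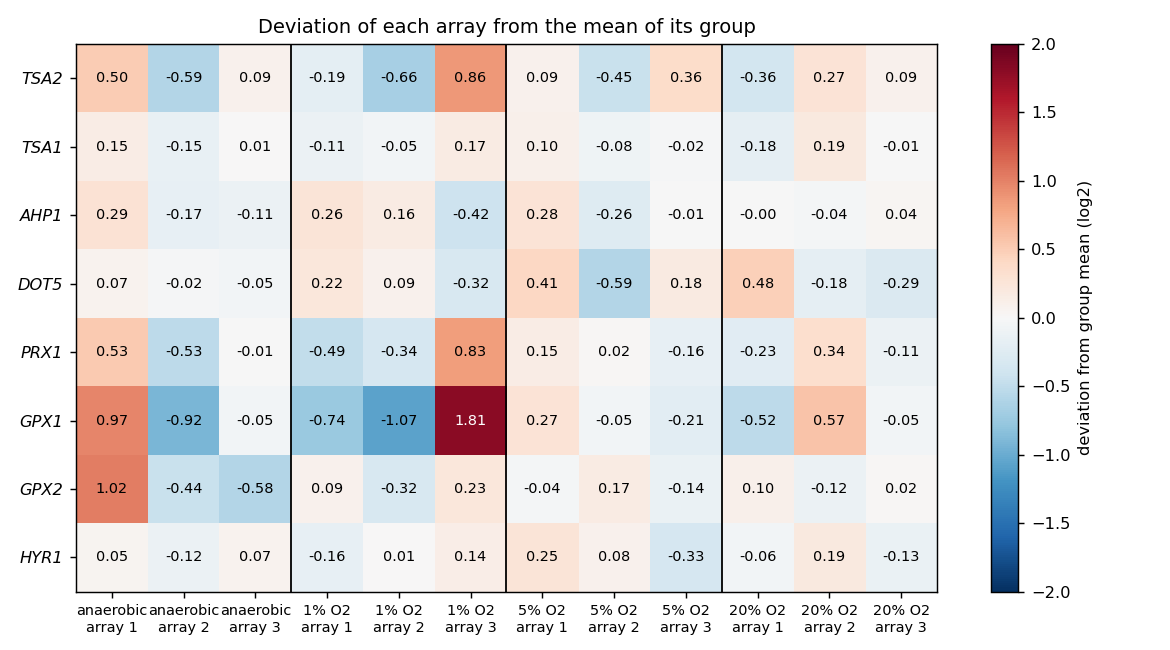
Deviation of each array from the mean of its group (log2, colour and printed value) for the 8 peroxidase genes (rows) on the 12 arrays (columns, groups divided by black lines). TSA2, TSA1, PRX1 and GPX1 are high together in anaerobic array 1 and 1% oxygen array 3, and GPX1 reaches 1.81 in the last of these. DOT5 is low (-0.32) in 1% oxygen array 3.

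Partner genes were read in 6 lists. They held systems that recharge or repair the peroxidases, other peroxide and superoxide enzymes, NADPH supply with the pentose phosphate pathway, and regulators. Of the 43 genes in these lists, 2 were called at 1% oxygen, 2 at 5% and 0 at 20%, or 4.65%, 4.65% and 0% of the 43, beside the 16.4%, 16.3% and 7.91% of all genes given above. Their median difference was -0.026, 0.046 and -0.056, and 5 of the 43 were dim. These medians hide single genes with large differences that were not called, such as ROX1 (-2.23 ± 0.92, adjusted p = 0.106) and ALD6 (-1.28 ± 0.43, adjusted p = 0.0586) at 1% oxygen, or GRX8 (1.25 ± 0.40, adjusted p = 0.0736) at 20%. The lists were chosen with earlier results of these data known.

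Of the 5 genes of the thioredoxin system, which reduces the peroxiredoxins, none was called at any oxygen supply. The cytosolic thioredoxin genes differed by -0.33 ± 0.17 (TRX1, adjusted p = 0.256) and -0.47 ± 0.23 (TRX2, adjusted p = 0.228) at 20% oxygen against anaerobic cultures. The thioredoxin reductase genes differed by -0.23 ± 0.19 (TRR1, adjusted p = 0.501) and 0.56 ± 0.30 (TRR2, the mitochondrial enzyme, adjusted p = 0.275). SRX1, the sulfiredoxin that repairs over-oxidised peroxiredoxins, differed by -0.21 ± 0.41 (adjusted p = 0.812) with an anaerobic mean of 4.88, in the dim range.

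Of 13 glutathione and glutaredoxin genes, GRX6 rose at 1% oxygen and GSH1 fell at 5%, and none was called at 20%. GSH1, the enzyme of the rate-limiting step of glutathione synthesis, read 7.23, 7.05 and 7.33 at 5% oxygen and 8.93, 8.35 and 8.43 in anaerobic cultures, with no overlap (-1.37 ± 0.33, adjusted p = 0.0168). Dropping the first anaerobic array (0.0597), the first 5% oxygen array (0.0522) or the second (0.0666, all adjusted p) ended the GSH1 call. GRX6, a glutaredoxin of the secretory pathway, read 8.21, 8.43 and 8.48 at 1% oxygen and 7.38, 7.62 and 7.51 in anaerobic cultures (0.87 ± 0.26, adjusted p = 0.045), and was not called without any one array of either group (adjusted p up to 0.116) or with the replicate number as a block (adjusted p = 0.0652). Its call also ended without 5% oxygen array 2 or any one 20% oxygen array, which enter only through the spread (adjusted p up to 0.0564).

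Of 6 other peroxide and superoxide enzymes, CTA1 was called at 5% oxygen and no gene at 1% or 20%. CTA1, the peroxisomal catalase, fell by 1.16 ± 0.34 (adjusted p = 0.0356) at dim levels, 1.57, 1.29 and 2.10 at 5% oxygen against 3.47, 2.71 and 2.27 in anaerobic cultures, and its difference was -0.84 without anaerobic array 1. CTA1 was not called when the first or second array of either group was dropped (adjusted p at most 0.132), with quantile scaling (adjusted p = 0.0549) or with the replicate number as a block (adjusted p = 0.0556). SOD1, the copper-zinc superoxide dismutase, differed by 0.53 ± 0.18 at 20% oxygen (adjusted p = 0.0852) and its chaperone CCS1 by -0.79 ± 0.24 (adjusted p = 0.0651). The cytosolic catalase CTT1 differed by -0.72 ± 0.92 (adjusted p = 0.7), with the wide spread that anaerobic array 1 gave it.

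Of 8 genes of NADPH supply and the pentose phosphate pathway, TAL1, the transaldolase, fell at 1% oxygen (-0.75 ± 0.22, adjusted p = 0.0432, limma). None of the 8 was called at 5% or 20%. TAL1 read 10.79, 10.54 and 10.18 at 1% oxygen and 11.37, 11.11 and 11.28 in anaerobic cultures. TAL1 was not called when any one anaerobic array or 1% oxygen array 2 or 3 was dropped (adjusted p at most 0.128), nor without 5% oxygen array 1 or 20% oxygen array 2 (at most 0.0514), with quantile or median scaling (0.0527 and 0.0535), or with the replicate number as a block (0.0706). ZWF1, the first enzyme of the pentose phosphate pathway, differed by -1.05 ± 0.46 at 20% oxygen (adjusted p = 0.172).

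None of 10 regulator genes was called in any comparison with the anaerobic group. YAP1, the activator of peroxide defence genes, differed by -0.066 ± 0.33 at 20% oxygen (adjusted p = 0.934), and SKN7, its partner at the promoters of TSA1 and other such genes, by -0.51 ± 0.44 (adjusted p = 0.537). ROX1, the repressor of hypoxic genes, differed by -1.84 ± 0.92 (adjusted p = 0.237) and spread from 6.98 to 10.42 over the anaerobic arrays. HAP1, the heme-responsive activator, differed by -0.69 ± 0.20 (adjusted p = 0.0581). These are transcript levels and do not measure the activity of the factors.

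**Figure D5:**
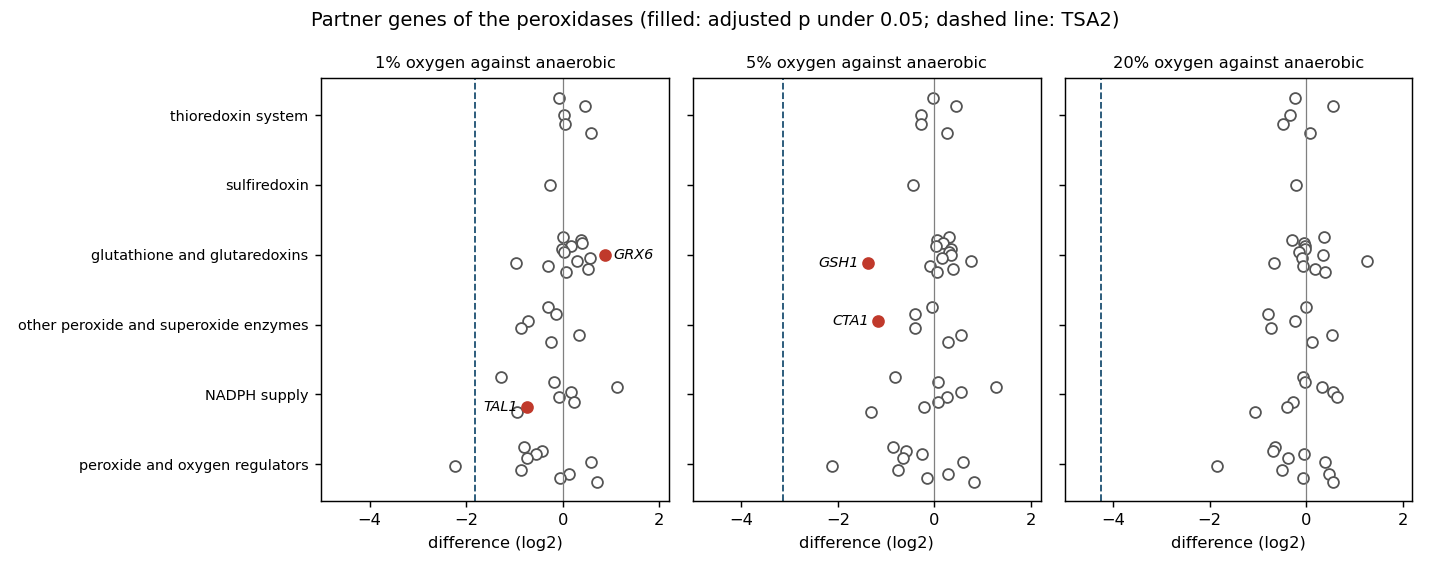
Difference from the anaerobic group (log2, horizontal axis) of 43 partner genes in 6 lists (vertical axis), at 1%, 5% and 20% oxygen from left to right. Filled points were called at an adjusted p under 0.05 (GRX6 and TAL1 at 1%, GSH1 and CTA1 at 5%, none at 20%), open points were not, and the dashed line marks TSA2, which lies outside all 43 genes at 5% and 20% oxygen.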

How the data were processed

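RNA was hybridised as biotin-labelled cRNA to Affymetrix arrays, per the labels' protocols. The authors deposited log2 values, 5716 probe sets by 12 arrays, made with RMA, per the submitters' processing notes. Which RMA version and options were used is not stated in the sources used here. The log2 scale was inferred from the lowest and highest value (0.318 and 13.7). Symbols came from the platform annotation, updated by gene identifier through the RefSeq table (assembly R64). Each of the 8 members had 1 probe set.

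The 4 group means were estimated together from the 12 arrays in limma 3.58.1 (R 4.3.3, lmFit and eBayes), over 5449 genes, with Benjamini-Hochberg adjustment over all of them and a threshold of 0.05. Intervals are 95%. The fit was tested on simulated data with independent noise for each gene and array. Shifts shared by the genes of an array were not part of that test. Replicate numbers did not pair the arrays: same-numbered arrays of different groups had deviations correlated at -0.317 to 0.358, over 0.1 in 2 of 18 pairs.

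Members and lists were chosen with earlier results of these data known. The rule for named genes took the members, the called genes of each list or else the one with the smallest p, and the 5 nearest in profile to TSA2 and to TSA1 (not PAU genes). Other list genes that were not called, and those ordered at every step, were picked after their values were seen. Alternatives covered scaling, dim genes, probe sets, the prior, a block, the groups fitted, a fold minimum and leaving out arrays. No sequences were used here.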

Additional observations from a re-analysis of the deposited data

How the results depend on the processing

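The 22 alternatives kept the count of family members called at 1 of 7 in 18, 18 and 17 cases at 1%, 5% and 20% oxygen against anaerobic cultures, and at 0 of 7 in all comparisons between oxygenated groups. Leaving out 1 array at a time gave 0 to 1 in each of the comparisons with anaerobic cultures, and leaving out anaerobic array 1 with 1% oxygen array 3, an alternative chosen after seeing the data, gave 0 at 1% oxygen. With the replicate block the counts were 1, 1 and 1. In this balanced design a block cannot move a difference of group means, so TSA2 less TSA1 at 20% oxygen stayed at -4.07. With arrays left out, TSA2 less TSA1 was -4.29 to -3.89. The TSA2 difference kept its sign throughout, at -2.25 to -1.49, -3.42 to -2.88 and -4.54 to -4.00. The 6 other members were never called in 378 alternative values, 18 of which changed sign. Many of these alternatives could not move a difference. These were the priors, the block, the dim filter, the probe-set rule, the groups fitted and leaving out arrays of groups not compared. The 18 changes of sign therefore stand against fewer than 378 values that could change. With 1 array left out at a time, TSA1 ranged from -0.037 to 0.12 at 1% and -0.043 to 0.10 at 5% oxygen. PRX1 ranged from -0.046 to 0.63, -0.05 to 0.48 and -0.31 to 0.21 at 1%, 5% and 20%. GPX1 ranged from -0.23 to 1.21 at 1% and -0.17 to 0.77 at 5%. GPX2 ranged from -0.10 to 0.70, -0.50 to 0.30 and -0.53 to 0.27 at 1%, 5% and 20%. Without both anaerobic array 1 and 1% oxygen array 3, PRX1 at 20% was 0.21, and GPX2 was 0.30 at 5% and 0.27 at 20%. The cause of these turns was not tested. Genes called over the whole table ranged from 36 (without anaerobic array 2) to 985 at 1% oxygen and 400 to 1602 (only the compared groups fitted) at 5%. They ranged from 153 to 758 (without 1% oxygen array 3) at 20%. For 20% against 1% they ranged from 5 to 44 (anaerobic array 1 and 1% oxygen array 3 left out). Leaving out 1 array of 3 also removes replicates from the fit. The 3 arrays a group limit the precision, and no detection calls were used here.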

Other observations

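Neighbouring genes, in the S288C gene order of the RefSeq table, were read beside the members. TSA2 lies between PPN1, a polyphosphatase gene, and GUK1, the guanylate kinase gene. These differed by 0.50 ± 0.23 (adjusted p = 0.209) and 0.27 ± 0.20 (adjusted p = 0.466) at 20% oxygen against anaerobic cultures, where TSA2 differed by -4.25. DOT5 lies beside TIR3, a cell wall mannoprotein gene of anaerobic growth, which differed by -1.49 ± 0.73 at 1% oxygen (adjusted p = 0.161) and fell by 2.38 ± 0.73 at 5% (adjusted p = 0.0427, limma) and fell by 3.26 ± 0.73 at 20% (adjusted p = 0.0189). Dropping anaerobic array 2 or 3, or the second of the 20% oxygen arrays, ended the TIR3 call at 20% (adjusted p at most 0.0802). At 5% its call ended on dropping any one anaerobic or 5% oxygen array (adjusted p at most 0.134), the first 1% oxygen array (0.0507) or 20% oxygen array 3 (0.0561). EST3, the neighbour on the other side of DOT5, differed by 0.37, 0.35 and 0.1 at 1%, 5% and 20% oxygen (adjusted p = 0.874 at 20%, limma). Of the 16 neighbours of the 8 members, 3 were called at 1% oxygen (USA1, PAN3 and ISW1, all lower), 5 at 5% (these 3 and TIR3 lower, TCD2 higher) and 1 at 20% (TIR3), beside 16.4%, 16.3% and 7.91% of all genes. USA1 lies beside TSA1. The order of these genes in EC1118 was not checked, and TIR3 was singled out after its values were seen.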
